A study of Mus musculus with 9 samples.

Results

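The genes described here are 10 genes of the response to low oxygen, chosen by symbol: the hypoxia-inducible factors Hif1a and Epas1, the oxygen-sensing prolyl hydroxylases Egln1 and Egln3, and the target genes Bnip3, Ndrg1, Ankrd37, Ero1l, P4ha1 and Adm. They are 10 of the 17156 genes in the table, and all 10 were among the 13613 genes kept after a filter on low counts. The cells were wild-type mouse pancreatic stellate cell lines of C57BL/6J origin, mesenchymal cells that lay down collagen in the injured pancreas. In the CM-JAKi group they grew for 4 days in medium conditioned by tumour organoids together with 500 nM AZD1480, an inhibitor of JAK kinases. In the CM group they grew in the conditioned medium without inhibitor, and in the MG-CM group in control DMEM with 5% FBS. Each group had 3 libraries of ribosome-depleted RNA, where replicate 1 was the line PSC4, replicate 2 PSC5-I and replicate 3 PSC5-II, and each replicate number had its own source of conditioned medium. Line and medium source therefore change together, and the oxygen level of the cultures was not given in the labels.

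In cells with oxygen, the prolyl hydroxylases mark the HIF alpha subunits, made from Hif1a and Epas1, for destruction by way of the VHL protein. When oxygen is short, or when other signals raise the alpha subunit, it pairs with the protein of Arnt and binds short elements near target genes for glycolysis, mitophagy, matrix synthesis and blood vessel growth. HIF is set to a large extent through the stability of its protein, so RNA levels do not measure HIF activity directly. Egln1 and Egln3 are themselves known targets of HIF and so form a feedback loop.

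The libraries held 25625806 to 32466018 counts and 15678 to 15944 genes with a count, and levels are given in CPM (counts scaled to library size, the usual counts-per-library unit), with log2 changes from edgeR's quasi-likelihood test over the genes kept. A gene was called at an adjusted p under 0.05. Of the 16 stellate and fibroblast markers, only Gfap was under 1 CPM in each group, and their summed level was 11116 to 11916 CPM in CM-JAKi, 7980 to 11461 CPM in CM and 9451 to 10563 CPM in MG-CM. Of the 9 ductal and epithelial markers, Epcam, Cdh1, Krt8 and Cldn4 were under 1 CPM, and the sums were 28.6 to 45.0 CPM in CM-JAKi, 34.4 to 37.0 CPM in CM and 34.5 to 49.2 CPM in MG-CM. Of the 9 leukocyte markers, Ptprc, Lyz2, Itgam and Cd3e were under 1 CPM in each group. Their summed level was highest in CM, at 34.0 to 118 CPM, against 15.9 to 32.6 CPM in CM-JAKi and 22.8 to 34.9 CPM in MG-CM. Cd14 had the most counts of these markers, and its part in the results was not tested. In such bulk RNA, fewer cells of a type and less RNA per cell cannot be told apart. The sum of the endothelial markers was lowest in CM, at 8.93 to 16.2 CPM in CM-JAKi, 3.15 to 4.55 CPM in CM and 6.18 to 8.40 CPM in MG-CM, with Pecam1 and Cdh5 under 1 CPM, and their part was not tested either. Emcn was the highest of them, at 6.31, 12.8 and 3.52 CPM in CM-JAKi and 0, 0 and 0.0328 CPM in CM. On average Tek was also lower in CM than in CM-JAKi, while Kdr, Vwf and Pecam1 were not. Mesothelial markers spanned 10.9 to 79.3 CPM in CM-JAKi, 3.41 to 75.6 CPM in CM and 7.55 to 26.1 CPM in MG-CM, and acinar and endocrine markers lay under 15 CPM in sum in every library. Only 8 of the 13 acinar and endocrine markers were among the genes counted. Of these, 7 were under 1 CPM on average and Cela1 was the highest, so the sum says nothing of the markers without a row.

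The core of the element that HIF binds was searched for in the RefSeq promoters of the genes, on build GRCm38.p6, from 250 bases before to 50 bases after the annotated start. Of the 10 genes, 8 had an entry, with Ero1l under its current symbol Ero1a, and Epas1 and Ndrg1 are named only. The letters ACGTG, read on either strand, were in 7 of the 8 promoters, against 19.6% of all 32851 promoters in the table. The letters GCGTG were in 6 of the 8, against 32.4% of all promoters, and all 8 held at least 1 of the 2 cores, against 43.8%. The palindrome CACGTG, which holds ACGTG on both strands and is counted on each, was in the promoters of Hif1a and Bnip3, against 7.15% of all promoters. A match describes the letters and is not evidence of binding. The sequences of 5 are shown, for a factor and for targets that moved in different ways below, each 5′ to 3′ on the gene's strand, with the cores on either strand in capitals. Hif1a lies on the plus strand at chr12:73907617-73907916, Bnip3 on the minus strand at chr7:138909457-138909756, Ankrd37 on the minus strand at chr8:45999801-46000100, Ero1l on the minus strand at chr14:45318523-45318822 and Adm on the plus strand at chr7:110627407-110627706.
Hif1a: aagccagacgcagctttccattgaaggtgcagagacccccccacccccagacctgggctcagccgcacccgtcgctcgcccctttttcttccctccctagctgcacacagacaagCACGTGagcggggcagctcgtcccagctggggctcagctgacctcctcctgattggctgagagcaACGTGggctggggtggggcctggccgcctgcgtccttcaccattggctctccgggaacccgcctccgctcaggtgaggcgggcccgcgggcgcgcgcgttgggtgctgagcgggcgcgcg
Bnip3: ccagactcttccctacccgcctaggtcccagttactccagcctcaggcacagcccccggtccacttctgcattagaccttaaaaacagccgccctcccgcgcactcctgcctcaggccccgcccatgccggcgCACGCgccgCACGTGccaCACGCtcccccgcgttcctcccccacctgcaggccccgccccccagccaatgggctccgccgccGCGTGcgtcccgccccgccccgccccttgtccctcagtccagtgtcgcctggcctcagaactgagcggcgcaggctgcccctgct
Ankrd37: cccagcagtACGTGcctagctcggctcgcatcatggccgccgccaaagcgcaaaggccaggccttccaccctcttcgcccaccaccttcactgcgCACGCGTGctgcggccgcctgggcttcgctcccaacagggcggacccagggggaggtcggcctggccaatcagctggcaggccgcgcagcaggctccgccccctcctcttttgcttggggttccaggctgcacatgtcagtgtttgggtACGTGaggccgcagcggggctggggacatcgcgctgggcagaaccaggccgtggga
Ero1l: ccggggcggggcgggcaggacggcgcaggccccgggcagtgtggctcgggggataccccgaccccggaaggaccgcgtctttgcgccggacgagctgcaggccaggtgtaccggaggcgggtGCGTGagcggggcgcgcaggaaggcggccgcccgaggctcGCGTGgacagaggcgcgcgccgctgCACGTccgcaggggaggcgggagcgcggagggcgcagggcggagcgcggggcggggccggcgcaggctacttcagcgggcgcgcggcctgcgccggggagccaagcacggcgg
Adm: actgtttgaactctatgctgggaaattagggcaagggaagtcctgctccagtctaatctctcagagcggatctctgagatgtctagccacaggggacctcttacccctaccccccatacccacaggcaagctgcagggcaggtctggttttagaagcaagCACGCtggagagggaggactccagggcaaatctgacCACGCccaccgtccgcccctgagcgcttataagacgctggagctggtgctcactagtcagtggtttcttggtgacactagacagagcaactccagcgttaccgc

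Part of the set rose in conditioned medium and fell when the JAK inhibitor was added to it. In CM against MG-CM, 4 of the 10 genes rose (Hif1a, Bnip3, Ero1l and P4ha1) and 0 fell, where 4.85% of all genes kept were called higher and 5.39% lower by edgeR. In CM-JAKi against CM, 5 of the 10 fell (Hif1a, Bnip3, Ndrg1, Ankrd37 and Ero1l) and 0 rose, beside 8.93% called lower and 10.1% called higher over all genes. In CM-JAKi against MG-CM, Ndrg1 was the one gene called, and it fell, beside 0.72% called lower and 0.286% called higher. The median log2 change of the 10 genes was 1.00 in CM against MG-CM and -0.85 in CM-JAKi against CM, against 0.006 and 0.008 over all genes. In CM-JAKi against MG-CM it was -0.17, against 0.005. The comparisons share libraries, CM in the first 2 and MG-CM or CM-JAKi in the others, so they are not independent of each other. The 10 genes were chosen with earlier results of these data known, so their counts beside those shares are a description only. With DESeq2, 6 genes were called higher and 1 lower in CM against MG-CM, 0 higher and 7 lower in CM-JAKi against CM, and 0 higher and 1 lower in CM-JAKi against MG-CM. Over all genes DESeq2 called 8.87% higher and 9.62% lower in CM against MG-CM, 13.3% higher and 12.7% lower in CM-JAKi against CM, and 1.45% higher and 2.31% lower in CM-JAKi against MG-CM. At an unadjusted p under 0.05 in edgeR the counts of the 10 genes were those of DESeq2, except for 1 higher in CM-JAKi against CM. The shares over all genes were then 13.9% higher and 14.4% lower in CM against MG-CM, 18.2% higher and 16.2% lower in CM-JAKi against CM, and 5.36% higher and 5.31% lower in CM-JAKi against MG-CM.

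With the replicate number as a block, the genes called were 5 higher and 0 lower in CM against MG-CM, 0 higher and 7 lower in CM-JAKi against CM, and 0 higher and 1 lower in CM-JAKi against MG-CM. Over all genes this fit called 11.6% higher and 12.8% lower in CM against MG-CM. The shares were 18.6% higher and 15.6% lower in CM-JAKi against CM, and 1.85% higher and 2.4% lower in CM-JAKi against MG-CM. Single libraries moved the counts. Without MG-CM replicate 2, 0 of the 10 genes were called in CM against MG-CM, in a fit that called 45 genes higher and 86 lower over the whole table, against 660 and 734 with all libraries. Without MG-CM replicate 3 the count was 2 higher (2.05% of all genes), and without CM replicate 2 it was 7 higher (3.55% of all genes). Without CM replicate 1, 1 gene was also called lower in CM against MG-CM, and this was Adm. The count in CM-JAKi against CM was 8 lower without CM replicate 2 (7.21% of all genes).

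**Figure D1:**
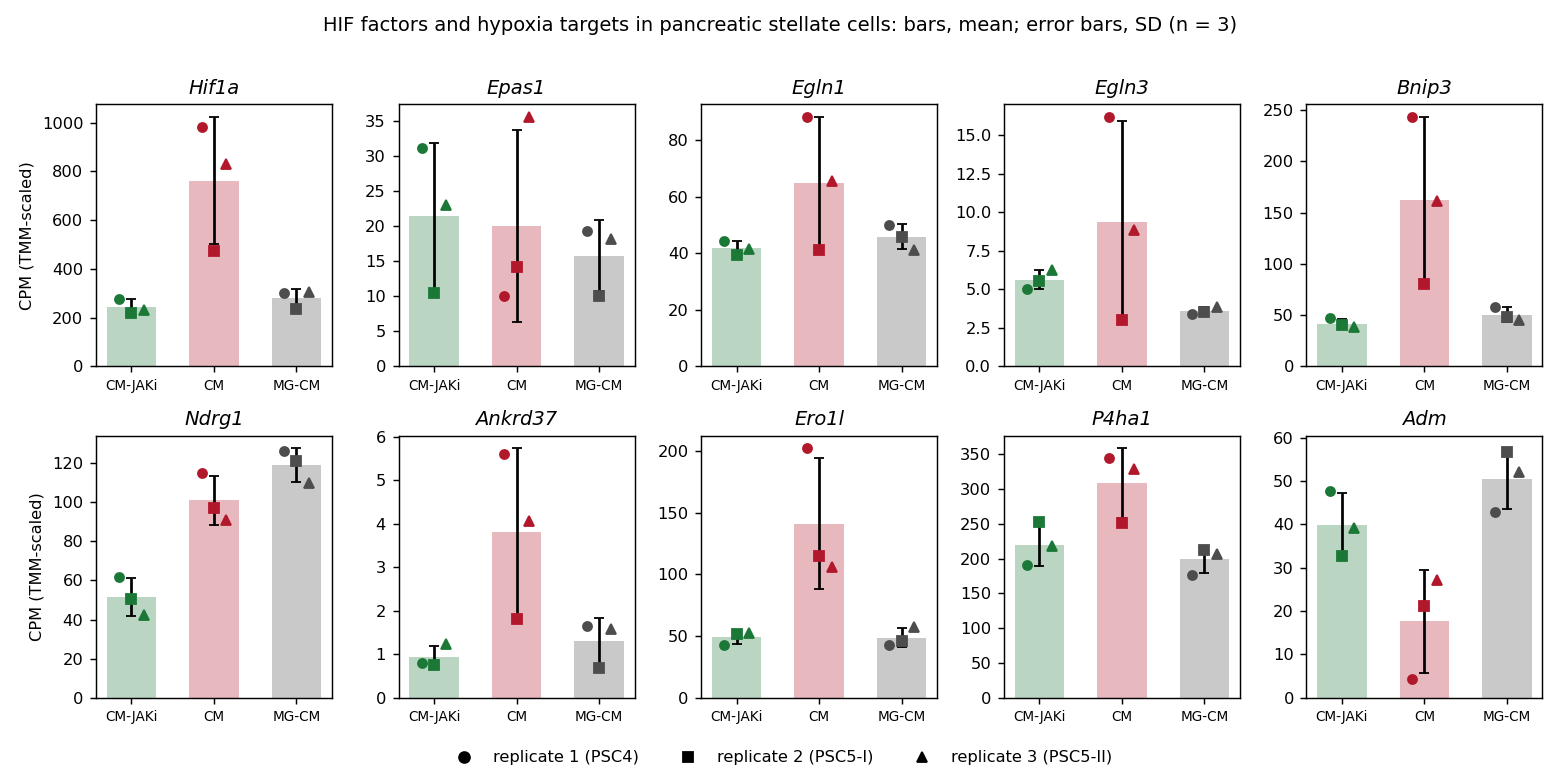
Level in CPM, on a linear axis from 0, of each of the 10 genes, with a panel per gene and the groups CM-JAKi, CM and MG-CM from left to right. Bars are means, error bars SD (n = 3 each) and symbols the replicates. Hif1a, Bnip3 and Ero1l in CM lie above every library of the other groups, Ndrg1 in CM-JAKi lies below every other library, and Adm in CM lies below them.

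Hif1a encodes the alpha subunit of HIF1, and its RNA rose in CM and fell with the inhibitor. It was at 278, 218 and 233 CPM in CM-JAKi replicates 1, 2 and 3, at 981, 473 and 831 CPM in CM, and at 302, 235 and 303 CPM in MG-CM. The CM libraries were all higher than the other 6, which overlapped. Hif1a rose by 1.45 ± 0.25 on the log2 scale (SE) in CM against MG-CM (adjusted p = 0.0137 by edgeR), and it changed by -1.65 ± 0.25 in CM-JAKi against CM (adjusted p = 0.00443). In CM-JAKi against MG-CM the log2 change was -0.20 ± 0.24, which did not pass the test (adjusted p = 0.872). The fall with the inhibitor was called without each of the 6 libraries in turn, and the rise in CM was lost without MG-CM replicate 2 (adjusted p = 0.0700).

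Epas1 encodes the alpha subunit of HIF2, and its RNA did not pass the test in any of the 3 comparisons with all libraries in. Its levels were 31.1, 10.5 and 23.0 CPM in CM-JAKi, 10.1, 14.2 and 35.6 CPM in CM, and 19.3, 10 and 18.2 CPM in MG-CM. All 3 groups overlapped, and the spread within a group, with a CV of 48.3% in CM-JAKi, 68.5% in CM and 32.0% in MG-CM, was wide. The log2 change was 0.34 ± 0.52 in CM against MG-CM (adjusted p = 0.724), 0.11 ± 0.52 in CM-JAKi against CM (adjusted p = 0.906) and 0.44 ± 0.52 in CM-JAKi against MG-CM (adjusted p = 0.869). Among the alternatives, Epas1 passed only in edgeR fits that left out a whole replicate number. The smallest adjusted p there was 0.00946 in CM against MG-CM and 0.0187 in CM-JAKi against CM. In CM against MG-CM 1 alternative gained a call as a rise. In CM-JAKi against CM the change that passed was a fall, opposite in sign to the 0.11 with all libraries in.

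The oxygen sensors were not called by edgeR with a term per group and all libraries in. With all libraries in, the replicate block or DESeq2 called each of them in 1 comparison. Leaving out a single library changed this, as given below. Egln1, which encodes the main prolyl hydroxylase of HIF1 alpha under normal oxygen, was at 44.3, 39.4 and 41.4 CPM in CM-JAKi, at 88.0, 41.3 and 65.6 CPM in CM and at 50.1, 45.9 and 41.3 CPM in MG-CM. CM replicates 1 and 3 were above all other libraries, and CM replicate 2 lay among them. The log2 change was 0.50 ± 0.23 in CM against MG-CM (adjusted p = 0.189) and -0.64 ± 0.23 in CM-JAKi against CM (adjusted p = 0.0839, against 0.0475 with the replicate block and 0.0341 with DESeq2), and CM-JAKi against MG-CM gave -0.14 ± 0.23 (adjusted p = 0.912). Egln3, the prolyl hydroxylase gene that HIF induces strongly in many cells, had 5.02, 5.57 and 6.27 CPM in CM-JAKi, 16.2, 3.04 and 8.86 CPM in CM and 3.40, 3.55 and 3.87 CPM in MG-CM. Its CM libraries held both the highest value, in replicate 1, and the lowest, in replicate 2, of the 9 libraries. The log2 change of Egln3 was 1.37 ± 0.48 in CM against MG-CM (adjusted p = 0.103, and 0.0284 with DESeq2) and -0.73 ± 0.47 in CM-JAKi against CM (adjusted p = 0.303). CM-JAKi against MG-CM gave 0.64 ± 0.48 (adjusted p = 0.742), with the CM-JAKi libraries all higher. Without CM replicate 2 both genes were called higher in CM against MG-CM, Egln1 at adjusted p = 0.0274 and Egln3 at 0.0154, and lower in CM-JAKi against CM, at 0.00963 and 0.0256. Without CM replicate 1 the log2 changes shrank: Egln1 was at 0.22 in CM against MG-CM (adjusted p = 0.543) and -0.36 in CM-JAKi against CM (0.241). Egln3 was then at 0.72 (0.321) in CM against MG-CM and -0.09 (0.913) in CM-JAKi against CM.

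Bnip3, which encodes a mitophagy receptor of the outer mitochondrial membrane, changed most in CM against MG-CM among the genes called. It was at 46.7, 40.2 and 38.1 CPM in CM-JAKi, at 243, 80.6 and 161 CPM in CM and at 58.3, 48.2 and 44.8 CPM in MG-CM. Every CM library was higher than all the others, with replicate 1 about 3 times replicate 2. The log2 change was 1.68 ± 0.33 in CM against MG-CM (adjusted p = 0.0206) and -1.95 ± 0.34 in CM-JAKi against CM (adjusted p = 0.00702), while CM-JAKi against MG-CM gave -0.28 ± 0.33 (adjusted p = 0.869). The rise was lost without MG-CM replicate 2 (adjusted p = 0.0874) or replicate 3 (0.0624), and the fall with the inhibitor was called without each of the 6 libraries.

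Ankrd37, an ankyrin repeat gene known as a HIF1 target, rested on the fewest counts of the set, 20 to 161 per library. It had 0.800, 0.748 and 1.24 CPM in CM-JAKi, 5.60, 1.80 and 4.07 CPM in CM and 1.65, 0.677 and 1.59 CPM in MG-CM. The CM libraries were the 3 highest, and counting error alone gave an exact Poisson 95% interval of 0.413 to 1.05 CPM for the lowest value. Ankrd37 fell in CM-JAKi against CM, with a log2 change of -2.04 ± 0.49 (adjusted p = 0.0225). This call was lost without CM replicate 1 (adjusted p = 0.0678), CM-JAKi replicate 1 (0.0546) or CM-JAKi replicate 2 (0.0879). In CM against MG-CM the log2 change was 1.55 ± 0.48 (adjusted p = 0.073), called with the replicate block (0.0117), with DESeq2 (0.0203) and without CM replicate 2 (0.0379). CM-JAKi against MG-CM gave -0.49 ± 0.49 (adjusted p = 0.835). Ankrd37 overlaps Ufsp2 and Lrp2bp on the other strand in the GENCODE annotation, and whether counting used the strand was not stated. Ufsp2 averaged 43.6 ± 1.76 CPM in CM-JAKi, 48.7 ± 4.93 CPM in CM and 39.3 ± 1.80 CPM in MG-CM (SD, n = 3 each). Its log2 change was 0.31 ± 0.09 in CM against MG-CM (adjusted p = 0.0661 by edgeR, 0.0433 with the replicate block and 0.0227 with DESeq2). Lrp2bp averaged 0.285, 0.604 and 0.243 CPM in CM-JAKi, CM and MG-CM. It changed by 1.29 ± 0.51 in CM against MG-CM (adjusted p = 0.136 by edgeR) and -1.07 ± 0.49 in CM-JAKi against CM (0.161), the directions of Ankrd37. Reads shared with either gene were not told apart from those of Ankrd37.

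Ero1l encodes the oxidase that restores protein disulfide isomerase in the endoplasmic reticulum, a step that uses oxygen. Its levels were 43.0, 51.5 and 52.6 CPM in CM-JAKi, 202, 115 and 106 CPM in CM and 42.5, 46.4 and 57.5 CPM in MG-CM. The CM libraries were the 3 highest, and the other groups lay within the same range. Ero1l rose by 1.53 ± 0.24 (log2) in CM against MG-CM (adjusted p = 0.0109) and changed by -1.53 ± 0.24 in CM-JAKi against CM (adjusted p = 0.00536). CM-JAKi and MG-CM differed by 0.01 ± 0.24 (adjusted p = 0.997). The rise was lost without MG-CM replicate 2 (adjusted p = 0.0584), and the fall was called without each library.

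P4ha1 encodes the catalytic subunit of collagen prolyl 4-hydroxylase, the enzyme whose product keeps the collagen helix stable. It had 191, 252 and 218 CPM in CM-JAKi, 345, 251 and 329 CPM in CM and 177, 213 and 206 CPM in MG-CM. CM replicate 2 was level with CM-JAKi replicate 2, and the CM libraries were all higher than those in MG-CM. P4ha1 rose by 0.63 ± 0.15 (log2) in CM against MG-CM (adjusted p = 0.0328), the smallest of the 4 rises. That call held without CM replicate 2 and was lost without each of the other 5 libraries of the comparison. The adjusted p was 0.0965 without CM replicate 1, 0.0812 without CM replicate 3, and 0.0832, 0.0940 and 0.0757 without MG-CM replicates 1, 2 and 3. In CM-JAKi against CM the log2 change was -0.48 ± 0.15 (adjusted p = 0.0534). It was called with the replicate block (0.0475), with DESeq2 (0.0130) and without CM replicate 2 (0.0263). CM-JAKi against MG-CM gave 0.15 ± 0.15 (adjusted p = 0.840).

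Ndrg1, a stress-response gene that hypoxia induces in many cell types, was called lower in CM-JAKi against both other groups. Its levels were 61.9, 50.5 and 42.2 CPM in CM-JAKi, 115, 97.1 and 90.7 CPM in CM and 126, 121 and 110 CPM in MG-CM. The CM-JAKi libraries were the 3 lowest, and CM overlapped MG-CM. Ndrg1 fell by 0.97 ± 0.15 on the log2 scale in CM-JAKi against CM (adjusted p = 0.00437) and by 1.21 ± 0.15 in CM-JAKi against MG-CM (adjusted p = 0.00807). In CM against MG-CM the log2 change was -0.24 ± 0.15 (adjusted p = 0.328). There 1 alternative, an edgeR fit without a whole replicate number, called Ndrg1 lower (adjusted p = 0.0247). The call in CM-JAKi against CM held without each library, and that against MG-CM was lost without CM-JAKi replicate 2 (adjusted p = 0.0560).

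Adm encodes adrenomedullin, a secreted vasodilator peptide that hypoxia raises in many tissues, and it was lowest in CM. It had 47.6, 32.8 and 39.2 CPM in CM-JAKi, 4.45, 21.1 and 27.2 CPM in CM and 42.9, 56.6 and 52.0 CPM in MG-CM. The CM libraries were the 3 lowest, and the PSC4 library of replicate 1 was far below the PSC5 ones. The log2 change was -1.52 ± 0.51 in CM against MG-CM, which missed the threshold in edgeR (adjusted p = 0.0916) and passed it in DESeq2 (0.0122) and without CM replicate 1 (0.0265 by edgeR). CM-JAKi against CM gave 1.18 ± 0.50 (adjusted p = 0.134), and 0.72 without CM replicate 1 (0.0540). CM-JAKi against MG-CM gave -0.34 ± 0.49 (adjusted p = 0.898). Some edgeR fits without a whole replicate number also called Adm. The smallest adjusted p there was 0.00234 in CM against MG-CM (lower), 0.0168 in CM-JAKi against CM (higher) and 0.0393 in CM-JAKi against MG-CM (lower).

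**Figure D2:**
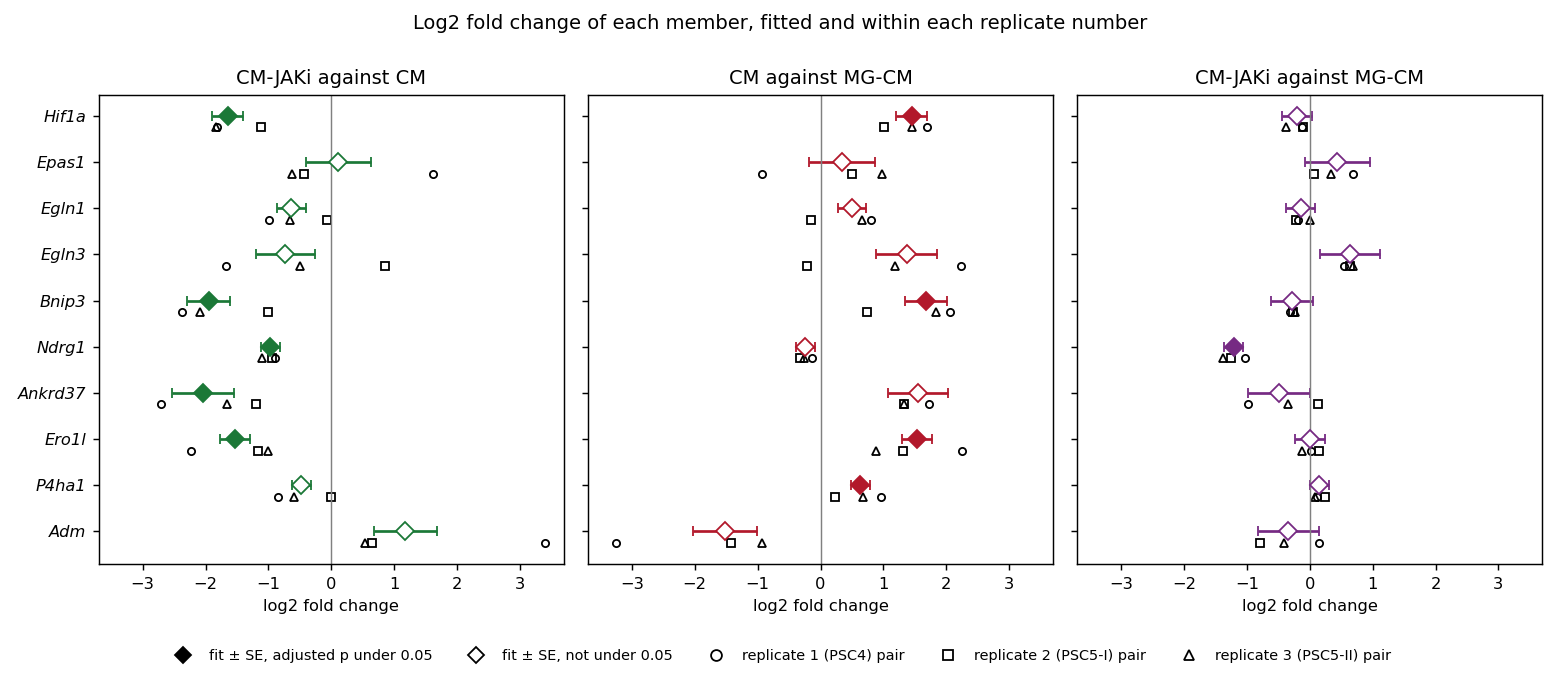
Log2 fold change of each of the 10 genes, in panels for CM-JAKi against CM, CM against MG-CM and CM-JAKi against MG-CM, as diamonds with the SE as error bars, filled where the adjusted p is under 0.05, and small symbols for the difference within each replicate number. Hif1a, Bnip3 and Ero1l are called in opposite directions in the first and second panels, and only Ndrg1, at -1.21, is called in the third.

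The CV over replicates was largest in CM for 9 of the 10 genes, all but Ndrg1. Shares over all genes were not computed for this count or the next 2. Over all genes kept, each pair of replicate numbers also differed most in CM, by chi-square values of 54.4 to 113 for each degree of freedom. These were 32 to 92.5 in CM-JAKi and 15.5 to 59.7 in MG-CM, so a wide spread in CM was not limited to these genes. CM replicate 1, from PSC4, had the highest level of the 9 libraries for 7 of the 10 genes: Hif1a, Egln1, Egln3, Bnip3, Ankrd37, Ero1l and P4ha1. CM replicate 2, from PSC5-I, had the lowest level within CM for 6 of the 10: Hif1a, Egln1, Egln3, Bnip3, Ankrd37 and P4ha1. The CV of Hif1a was 12.8% in CM-JAKi, 34.3% in CM and 13.9% in MG-CM, and that of Bnip3 was 10.8% in CM-JAKi, 50.3% in CM and 13.9% in MG-CM. Because each replicate number is also a medium source, line and source cannot be told apart here.

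Whether the effects differed between PSC4 and PSC5 was tested with an interaction term, in which PSC4 had 1 library per group and its spread was taken to be that of PSC5. Over all genes 0.367% were called in this test for CM-JAKi against CM and 0.228% for CM against MG-CM. Line cannot be told apart from medium source in this test, and the error of PSC4 itself was not measured. Of the 10 genes, 1 was called, Adm in CM-JAKi against CM. Its log2 change was 3.42 in PSC4 and 0.57 in PSC5, a difference of 2.84 ± 0.28 (adjusted p = 0.0171 by edgeR). In CM against MG-CM, Adm changed by -3.27 in PSC4 and -1.17 in PSC5 (difference -2.10 ± 0.28, adjusted p = 0.053, and 0.0245 when libraries were scaled by size alone). For Ero1l the log2 change in CM against MG-CM was 2.25 in PSC4 and 1.09 in PSC5 (difference 1.16 ± 0.19, adjusted p = 0.0842). The inhibitor comparison, CM-JAKi against CM, gave -2.23 in PSC4 and -1.09 in PSC5 (difference -1.15 ± 0.19, adjusted p = 0.0929). The differences for Hif1a were small beside their error, at 0.42 ± 0.48 in CM against MG-CM (adjusted p = 0.721) and -0.29 ± 0.48 in CM-JAKi against CM (adjusted p = 0.856).

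**Figure D3:**
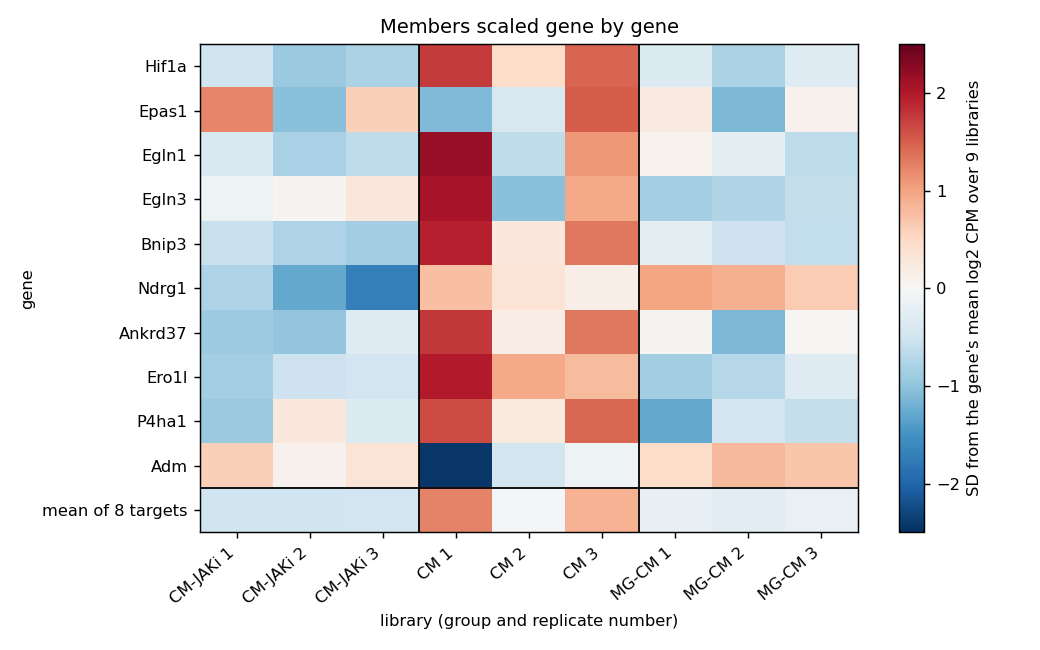
Z-score over the 9 libraries (colour) of the log2 CPM of each of the 10 genes, with the mean of the 8 genes other than Hif1a and Epas1 in the last row and the groups CM-JAKi, CM and MG-CM from left to right. CM replicate 1 has the highest value for 7 of the 10 genes, and Adm shows the reverse order, with its lowest value there.

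The genes whose pattern over the 9 libraries lay nearest to the mean of the 8 genes other than Hif1a and Epas1 were Higd1a, Fam162a, Rgs16, Nup93 and Slc2a1. Likeness was the root mean square difference between z-scored log2 CPM, where 0 is the same pattern, and these 5 genes had 0.383, 0.383, 0.387, 0.393 and 0.397. Among the 10 genes, Bnip3 (0.382) and Hif1a (0.404) were nearest to the same mean, of which Bnip3 is a part. Ndrg1 (0.847), Epas1 (1.13) and Adm (1.46) were farthest. Fam162a, a mitochondrial protein gene known as a HIF1 target, had 17.9, 16.0 and 15.9 CPM in CM-JAKi, 112, 30.1 and 59.1 CPM in CM and 18.2, 17.2 and 18.4 CPM in MG-CM. Slc2a1, the glucose transporter gene, had 128, 124 and 105 CPM in CM-JAKi, 387, 180 and 243 CPM in CM and 133, 133 and 148 CPM in MG-CM. Rgs16, a regulator of G protein signalling, had 11.3, 11.8 and 12.8 CPM in CM-JAKi, 28.7, 14.3 and 26.6 CPM in CM and 14.3, 13.6 and 12 CPM in MG-CM, where CM replicate 2 was level with MG-CM replicate 1. The genes were chosen for their pattern over these libraries, so their likeness is a description only.

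Of 20 partner and regulator genes kept, 2 rose and 0 fell in CM against MG-CM, 0 rose and 3 fell in CM-JAKi against CM, and 0 were called by edgeR or DESeq2 in CM-JAKi against MG-CM, where 1 gene had an unadjusted p under 0.05. These are 10% and 15% of the list, beside 4.85% higher and 8.93% lower over all genes, a gap of 1 or 2 genes. With the replicate block, 3 were called higher and 3 lower in CM against MG-CM, 2 higher and 3 lower in CM-JAKi against CM, and 0 higher and 1 lower in CM-JAKi against MG-CM. Over all genes that fit called 11.6% higher and 12.8% lower, 18.6% and 15.6%, and 1.85% and 2.4% in these comparisons, so nothing is read from these counts. Their median log2 change was 0.14 in CM against MG-CM, -0.08 in CM-JAKi against CM and -0.07 in CM-JAKi against MG-CM. Siah2, an E3 ligase that acts on the prolyl hydroxylases, rose by 0.80 ± 0.19 and Kdm3a, a histone demethylase and HIF target, by 0.58 ± 0.11 in CM against MG-CM (adjusted p = 0.0331 and 0.0201). Both fell in CM-JAKi against CM, by 0.79 ± 0.19 and 0.71 ± 0.11 (adjusted p = 0.0231 and 0.00556), as did Bhlhe40, a HIF-induced repressor, by 1.56 ± 0.35 (adjusted p = 0.0176). The fall of Kdm3a was called without each library. The rise of Siah2 was lost without 5 of 6 libraries (largest adjusted p = 0.129) and held without CM replicate 3, and the rise of Kdm3a was lost without MG-CM replicate 2 (0.0874) or 3 (0.0619). The fall of Siah2 was lost without CM-JAKi replicate 2 (0.0809) or 3 (0.0680), and that of Bhlhe40 without CM replicate 1 (0.0525) or CM-JAKi replicate 2 (0.0721) or 3 (0.0539). Arnt, the partner of the alpha subunits, was named after its values were seen, and was at 105 ± 1.45 CPM in CM-JAKi, 107 ± 5.40 CPM in CM and 98.4 ± 9.62 CPM in MG-CM (SD, n = 3 each), with a log2 change of 0.13 ± 0.09 in CM against MG-CM (adjusted p = 0.391).

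Among 43 further hypoxia targets, 16 rose and 2 fell in CM against MG-CM, and 5 rose and 18 fell in CM-JAKi against CM, with median log2 changes of 0.54 and -0.44. The 16 rises are 37.2% and the 18 falls 41.9% of the list, beside 4.85% and 8.93% of all genes. The list was written with earlier results of these data known, so these shares are a description only. With the replicate block the counts were 20 higher and 3 lower, and 5 higher and 20 lower. That fit called 11.6% higher and 12.8% lower over all genes in CM against MG-CM, and 18.6% and 15.6% in CM-JAKi against CM. In CM against MG-CM 2 rose and 0 fell without MG-CM replicate 2, where 0.326% of all genes were higher. The rises were 9 without MG-CM replicate 1 (2.88% of all genes), 8 without MG-CM replicate 3 (2.05%) and 10 without CM replicate 1 (2.24%). The falls there were 1 without MG-CM replicate 1 or 3. The falls in CM-JAKi against CM were 11 without CM-JAKi replicate 2, where 3.48% of all genes were lower. Angptl4, a secreted lipase inhibitor, rose by 2.53 ± 0.29 (log2) in CM against MG-CM (adjusted p = 0.00638). Its level was 108 ± 26.7 CPM in CM-JAKi, 152 ± 36.7 CPM in CM and 26.4 ± 9.44 CPM in MG-CM (SD, n = 3 each). Its log2 change in CM-JAKi against CM was -0.50 ± 0.27 (adjusted p = 0.235), and in CM-JAKi against MG-CM it rose by 2.03 ± 0.29 (adjusted p = 0.0167), a call lost without MG-CM replicate 1 (0.0534) or 2 (0.0702) or CM-JAKi replicate 2 (0.0531) or 3 (0.0567). Stc2, a secreted glycoprotein gene, rose by 2.53 ± 0.38 in CM against MG-CM (adjusted p = 0.0099). Ak4, a mitochondrial adenylate kinase, rose by 2.31 ± 0.35 and the glycogen synthase Gys1 by 0.84 ± 0.14 (adjusted p = 0.0103 and 0.0122), and both calls were lost without MG-CM replicate 2 (0.0557 and 0.0635).

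With the inhibitor, in CM-JAKi against CM, the small MAF factor Maff fell by 0.80 ± 0.11 and Gys1 by 1.02 ± 0.14 (adjusted p = 0.00244 and 0.0029 by edgeR). Insig2, which restrains sterol synthesis, and Ppp1r3c, a glycogen-targeting phosphatase subunit, rose in that comparison, by 1.27 ± 0.14 and 2.45 ± 0.32 (adjusted p = 0.000918 and 0.00245). Ppp1r3c was at 23.1, 23.1 and 11.6 CPM in CM-JAKi, 3.13, 2.88 and 4.59 CPM in CM and 13.4, 15.1 and 9.17 CPM in MG-CM, so its CM libraries were the 3 lowest, as for Adm. In CM-JAKi against MG-CM, 2 of the 43 genes were called, Angptl4 and Insig2, and both were higher, beside 0.286% called higher over all genes. Insig2 rose by 1.01 ± 0.14 there (adjusted p = 0.0137), a call lost without MG-CM replicate 2 (0.0626) or 3 (0.0671).

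Of the genes listed as glycolysis genes under HIF control, 20 were kept, among them Mif, which encodes a cytokine. Of these 20, 9 rose and 0 fell in CM against MG-CM, and 1 rose and 14 fell in CM-JAKi against CM. In CM-JAKi against MG-CM 0 were called by edgeR or DESeq2, and 2 had an unadjusted p under 0.05. The 9 rises are 45% and the 14 falls 70% of the list, beside 4.85% and 8.93% of all genes. This list too was written with earlier results of these data known, so its shares are a description only. With the replicate block 14 rose and 0 fell in CM against MG-CM, beside 11.6% called higher and 12.8% lower over all genes. In CM-JAKi against CM 1 rose and 16 fell with the block, beside 18.6% higher and 15.6% lower. Their median log2 change was 0.80 in CM against MG-CM, -0.86 in CM-JAKi against CM and -0.12 in CM-JAKi against MG-CM. The rises were 1 without MG-CM replicate 2 (0.326% of all genes), 4 without CM replicate 1 (2.24%) or 3 (3.80%), 5 without MG-CM replicate 1 (2.88%) and 14 without CM replicate 2 (3.55%). The falls were 6 without CM-JAKi replicate 2 (3.48% of all genes), 8 without CM replicate 3 (7.53%) and 9 without CM replicate 1 (5.37%) or CM-JAKi replicate 1 (8.42%). Slc16a3, the lactate exporter gene, was at 8.56, 11.5 and 12.1 CPM in CM-JAKi, 144, 55.5 and 124 CPM in CM and 11.1, 12.8 and 12 CPM in MG-CM. It rose by 3.17 ± 0.33 (log2) in CM against MG-CM (adjusted p = 0.00545) and fell by 3.33 ± 0.33 in CM-JAKi against CM (adjusted p = 0.000647), and both calls held without each library. Aldoc, Pfkl and Mif rose by 1.55 ± 0.24, 1.21 ± 0.21 and 1.10 ± 0.20 in CM against MG-CM (adjusted p = 0.00991, 0.0144 and 0.0157), calls that were lost without MG-CM replicate 2 (0.0557, 0.0710 and 0.0757). In CM-JAKi against CM, Mif, Pfkl and the hexokinase gene Hk2 fell by 1.23 ± 0.20, 1.29 ± 0.21 and 1.51 ± 0.25 (adjusted p = 0.00548, 0.00588 and 0.00662).

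**Figure D4:**
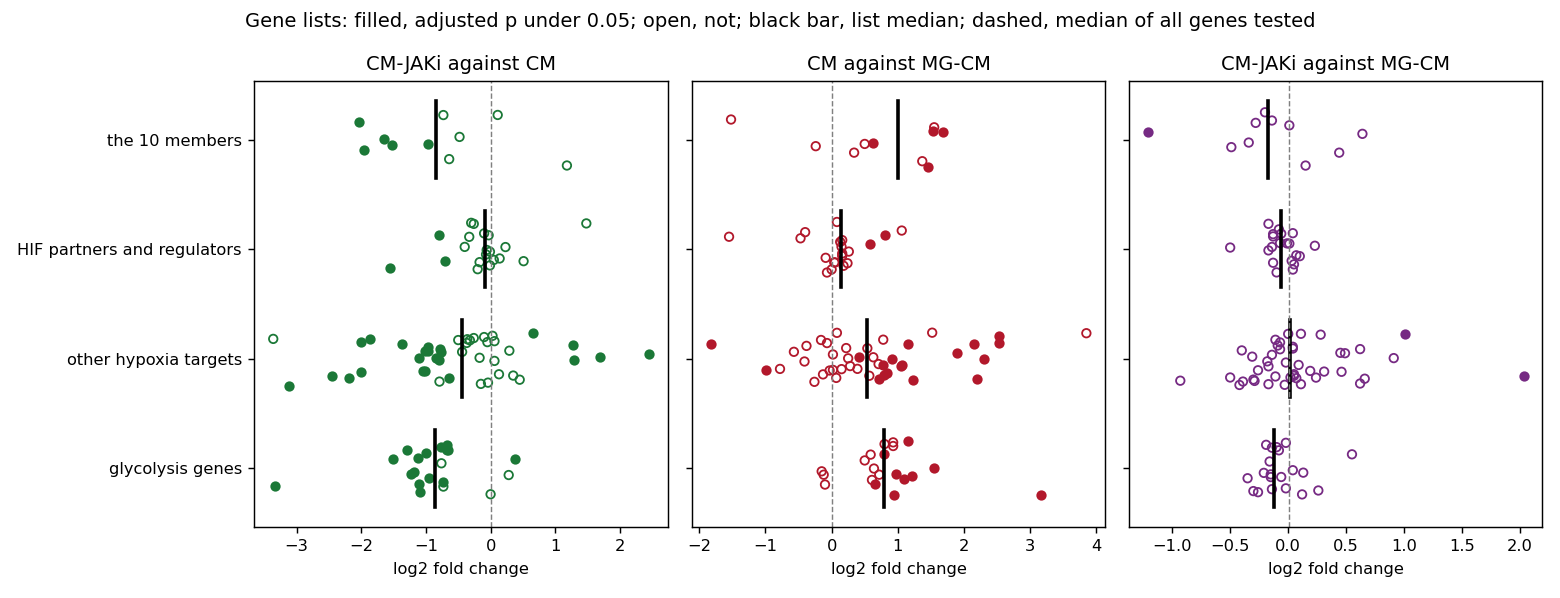
Log2 fold changes of the 10 genes, the HIF partners and regulators, the further hypoxia targets and the glycolysis genes in CM-JAKi against CM, CM against MG-CM and CM-JAKi against MG-CM, with a point per gene, called genes filled, the median of the list as a black bar and the median of all genes dashed; the panels have different scales. The glycolysis list, which includes the cytokine gene Mif, has medians of -0.86, 0.80 and -0.12 in these panels. The further hypoxia targets have -0.44, 0.54 and 0.02. Both lists show their medians on opposite sides of 0 in the first and second panels.

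Lists of partners of single targets are short, with 4 to 12 genes, so 1 gene is a large part of a list and nothing is read from their counts. Over all genes the shares called were 4.85% higher and 5.39% lower (CM against MG-CM) and 10.1% higher and 8.93% lower (CM-JAKi against CM). With the replicate block these shares were 11.6% and 12.8%, and 18.6% and 15.6%, and in CM-JAKi against MG-CM 1.85% and 2.4%. Of 8 mitophagy genes kept, Bnip3 rose and Pink1, the kinase that starts mitophagy at damaged mitochondria, fell in CM against MG-CM, and in CM-JAKi against CM Bnip3 fell and Pink1 rose. Pink1 was at 85.4, 90.1 and 77.3 CPM in CM-JAKi, 49.5, 53.0 and 54.9 CPM in CM and 82.5, 84.7 and 75.5 CPM in MG-CM, with log2 changes of -0.62 ± 0.09 in CM against MG-CM (adjusted p = 0.00924) and 0.68 ± 0.09 in CM-JAKi against CM (adjusted p = 0.00196). Both calls of Pink1 held without each library. None of the 8 were called in CM-JAKi against MG-CM, by edgeR or DESeq2, and 0 had an unadjusted p under 0.05. Mitophagy calls with the replicate block in CM-JAKi against CM were 2 higher and 2 lower.

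In the NDRG family of 4, Ndrg3 fell by 0.72 ± 0.14 in CM against MG-CM (adjusted p = 0.0206, lost without MG-CM replicate 2 or 3 at 0.0892 and 0.0515). Ndrg4 rose in CM-JAKi against CM, by 0.84 ± 0.17 (adjusted p = 0.0114, and 0.0530 without CM-JAKi replicate 2) and Ndrg3 by 0.52 ± 0.14 (adjusted p = 0.0378). The Ndrg3 rise was lost without CM replicate 1 (0.0661) or CM-JAKi replicate 1 (0.0824), 2 (0.128) or 3 (0.0521). Ndrg1 fell in the comparison in which both of these rose. The replicate block called 2 of the family lower in CM against MG-CM.

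Adrenomedullin signals through Calcrl with a RAMP protein, and 5 genes of its receptors were kept. With the replicate block 2 were higher and 1 lower in CM against MG-CM and in CM-JAKi against CM, and 1 higher and 1 lower in CM-JAKi against MG-CM. Calcrl was at 125, 89.8 and 98.3 CPM in CM-JAKi, 139, 107 and 80.1 CPM in CM and 27.5, 38.8 and 46.8 CPM in MG-CM. It rose by 1.53 ± 0.25 in CM against MG-CM (adjusted p = 0.0116, and 0.0574 without MG-CM replicate 2) and by 1.47 ± 0.25 in CM-JAKi against MG-CM (adjusted p = 0.0325). The last call was lost without each of the 6 libraries, at 0.0642 to 0.105. The CM libraries of Calcrl were all above those of MG-CM, where Adm had the reverse order. Cxcr7, a scavenger receptor for adrenomedullin, fell by 3.18 ± 0.85 in CM-JAKi against CM (adjusted p = 0.0334), a call lost without CM replicate 1 (0.0986) or 3 (0.0508) or CM-JAKi replicate 2 (0.114) or 3 (0.0912). Ramp2, a partner of Calcrl, was under 1 CPM in every CM library and rose by 1.72 ± 0.40 in CM-JAKi against CM (adjusted p = 0.0207). This call was lost without CM replicate 1 (0.0668) or 2 (0.0548) or CM-JAKi replicate 1 (0.0507).

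Of 12 genes for collagen prolyl and lysyl hydroxylation, P4ha1 and P4ha2 rose and Leprel1 fell in CM against MG-CM, and P4ha2 and Plod3 fell in CM-JAKi against CM. With the replicate block 3 were higher and 1 lower in CM against MG-CM, 1 higher and 4 lower in CM-JAKi against CM, and 0 higher and 2 lower in CM-JAKi against MG-CM. Plod3, a lysyl hydroxylase, fell by 0.61 ± 0.10 (adjusted p = 0.00518) and was called without each library. P4ha2, which encodes another alpha subunit of the enzyme and also counts among the further hypoxia targets, rose by 0.79 ± 0.21 in CM against MG-CM (adjusted p = 0.0477) and fell by 0.76 ± 0.21 in CM-JAKi against CM (adjusted p = 0.0356). Its rise held only without CM replicate 2 (up to 0.129 otherwise), and its fall was lost without CM replicate 1 (0.0926) or 3 (0.0683) or CM-JAKi replicate 1 (0.0816) or 2 (0.117). Leprel1, a collagen prolyl 3-hydroxylase, fell by 1.13 ± 0.28 (adjusted p = 0.0401), a call lost without 5 of 6 libraries (up to 0.112) and kept without CM replicate 1. Of 11 oxidative folding genes, Ero1l was the one gene called in CM against MG-CM, and in CM-JAKi against CM Ero1l fell and Qsox1, a sulfhydryl oxidase, rose by 0.42 ± 0.10 (adjusted p = 0.0213, and 0.0526 to 0.0632 without CM-JAKi replicate 1 or 3 or CM replicate 2 or 3). The replicate block called 3 folding genes higher and 2 lower in CM against MG-CM, and 2 higher and 2 lower in CM-JAKi against CM.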

How the data were processed

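RNA of 9 libraries, 3 per group, was sequenced after TruSeq Stranded Total RNA preparation, per the labels' protocols. Tools named in the submitters' processing notes are STAR 2.5.1b, RSEM 1.2.29 and DESeq2, with builds NCBIM37 and mm9, and what each was used for is not given. The table deposited by the authors was read as RSEM's estimated counts per gene symbol, rounded to whole numbers and not scaled, from the values and from the notes naming RSEM, and 17156 genes had a row. Whether counting used the strand was not given in the sources used here. Of the 10 genes, 6 overlap another gene in the GENCODE annotation, and 1 of these, Ankrd37, overlaps genes that are in the table.

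Counts were tested in R 4.3.3 with edgeR 4.0.16 (glmQLFit with robust estimation, glmQLFTest). Libraries were scaled by TMM, genes were filtered with filterByExpr (minimum count 10, minimum total 15), and a term per group was fitted over all 9 libraries. P-values were adjusted by Benjamini-Hochberg over the 13613 genes kept and called under 0.05. The script was tested on simulated data. Z-scores used log2 CPM with a prior count of 2. Intervals of counts are exact at a confidence level of 0.95 and cover counting error only. Alternatives were the replicate block, other scalings, no filter, the 2 compared groups only, DESeq2 1.42.0, and fits without each library or replicate number. Fits without a replicate number that kept the block, and list counts without each library, were added after seeing the data. Scaling by library size alone moved the median over all genes (log2) to -0.066 in CM against MG-CM and 0.103 in CM-JAKi against CM.

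Same-numbered libraries share a stellate line, per the labels, and CM and CM-JAKi of a number a medium source. After group means were removed, the 9 same-number pairs correlated across genes at 0.291 to 0.680 and the 18 other pairs at -0.536 to 0.279. The numbers thus pair the libraries, but only the fits with the replicate block used this pairing. The main fit and the fits without a single library left it out. Replicates within a group differed by chi-square values of 15.5 to 113 for each degree of freedom, so no library was a copy of another. The labels state biological replicates.

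The 10 genes and the other lists were chosen with earlier results of these data known. All 10 genes are described. Of each other list the text draws on up to 4 called genes per comparison with the smallest p, plus the 5 genes nearest in pattern to the mean of the 8 genes other than Hif1a and Epas1. Marker lists are given as summed levels. Promoter sequences are from RefSeq on GRCm38.p6, and no coordinates were converted between builds.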

Additional observations from a re-analysis of the deposited data

Results flagged for a closer look

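The log2 change of Adm in CM-JAKi against CM was 3.42 in PSC4 and 0.57 in PSC5, a difference of 2.84 ± 0.28 (SE) with an adjusted p of 0.0171 in edgeR's interaction test. Adm rested on 4.45 CPM in the PSC4 library of CM, and PSC4 had 1 library per group, so its spread was assumed to be that of PSC5 and a difference of the lines is not established. Line and medium source cannot be told apart.

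The PSC4 pair of Epas1 lay on the other side of 0 from both PSC5 pairs, and neither difference passed the test. In CM against MG-CM its log2 change was -0.93 in PSC4 and 0.82 in PSC5, where both PSC5 pairs moved up, a difference of -1.75 ± 1.02 (adjusted p = 0.474). In CM-JAKi against CM it was 1.62 in PSC4 and -0.58 in PSC5, where both PSC5 pairs moved down, a difference of 2.20 ± 1.02 (adjusted p = 0.450).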

How the results depend on the processing

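Over all alternatives and the 3 comparisons, 461 of the single-gene values kept their direction and their side of the threshold, 38 lost a call, 26 gained one and 15 reversed. The replicate block gained the calls of Ankrd37 in CM against MG-CM and of Egln1 and P4ha1 in CM-JAKi against CM, given above, and changed no other call of the 10 genes. DESeq2 gained Egln3 and Ankrd37 higher and Adm lower in CM against MG-CM (1 gene lower, against 0 in edgeR), and Egln1 and P4ha1 lower in CM-JAKi against CM. With library size alone, 1 gene (Adm) differed between PSC4 and PSC5 in CM against MG-CM, against 0 with TMM. When single libraries or replicate numbers were left out, the genes called numbered 0 to 7 higher and 0 to 2 lower in CM against MG-CM, 0 to 1 higher and 2 to 8 lower in CM-JAKi against CM, and 0 to 2 lower in CM-JAKi against MG-CM. Leaving out a replicate number left 2 libraries a group. Over all genes, the fit without number 2 and without the block called 0.044% higher and 0.0147% lower in CM against MG-CM. In CM-JAKi against CM it called 0.557% and 1.32%. The fit without number 1 that kept the block called 9.87% and 10.6%, and 16.3% and 14.6%. In CM-JAKi against MG-CM the share lower ran from 0% without number 3, with no block, to 3.57% without number 1 with the block. The log2 changes that reversed were not called with all libraries in. As given above, Epas1 passed the test in some fits without a replicate number. Epas1 spanned -0.38 to 0.82 in CM against MG-CM and -0.58 to 0.81 in CM-JAKi against CM, Egln3 spanned -1.16 to 0.11 in CM-JAKi against CM, and Ero1l spanned -0.08 to 0.14 in CM-JAKi against MG-CM. With the block kept, Epas1 was at -0.11 without replicate number 3 in CM against MG-CM and at -0.54 without number 1 in CM-JAKi against CM, and Ero1l at -0.06 without number 2. The causes were not tested. With the 2 compared groups only, the rise of P4ha1 in CM was lost (adjusted p = 0.0547). Ankrd37, with as few as 20 counts, had the widest counting error.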
